A study of Mus musculus with 4 samples.

Results

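The miRNAs described here are markers of blood cells and liver that are often followed in serum. They are miR-451a and miR-144-3p of red cells, miR-142a-3p, miR-142a-5p, miR-150-5p and miR-223-3p of white cells, miR-486a-5p of red cells and muscle, and miR-122-5p of liver. They were chosen by their miRBase identifiers, and the other arm of each hairpin was added where the table held a row for it. This gave 13 of the 2110 rows of the count table, 8 of them for the listed miRNAs and 5 for other arms.

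The rows come from small RNA sequencing of extracellular vesicles, membrane particles that cells release with RNA inside. The vesicles were purified by differential centrifugation from C2C12, a single established mouse myoblast line, kept in DMEM with 10% fetal bovine serum. All 4 libraries carry the genotype label WT. The damaged group (2 libraries) was treated with hydrogen peroxide, and the WT group (2 libraries) has WT as its treatment label. The labels give neither the dose and duration of peroxide nor whether the serum was cleared of its own vesicles. They do not say that replicates were separate cultures, so p-values measure only the spread between these libraries. Depth was 4577668 and 7638663 counts in the WT libraries (replicates 1 and 2, the order used throughout) and 6901394 and 7350345 in the damaged ones. Where a library shows 0, up to 3 counts remain possible.

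A miRNA is cut from a hairpin precursor, and one or both arms of the hairpin can become mature miRNAs of about the same length. The mature strand guides Argonaute to messenger RNAs that pair with its seed, bases 2 to 8. miR-451a is unusual in that its short hairpin is cut by Argonaute 2 itself and not by Dicer, so it has no partner arm. It lies beside miR-144 in a locus driven by GATA1 in red cell precursors, and both are very abundant in red cells. miR-223 is a myeloid miRNA, miR-150 is found in mature lymphocytes, miR-142 is made in nearly all blood cells, and miR-122 is the dominant miRNA of hepatocytes. Serum is rich in such miRNAs, carried in vesicles and in protein complexes. A bovine miRNA of the same sequence as a mouse one cannot be told apart from it by counts, and no bovine sequence was used here.

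The mature sequences below are from RefSeq on GRCm38.p6 (mm10), which had entries for 8 of the 13 rows. They are shown 5′ to 3′ with the seed in capitals, because they are the molecules whose counts follow. No other mature entry of the table with a sequence in RefSeq had the seed of any of these.
miR-451a: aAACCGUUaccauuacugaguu
miR-144-3p: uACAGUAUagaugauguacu
miR-144-5p: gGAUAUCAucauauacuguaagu
miR-142a-5p: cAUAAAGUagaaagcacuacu
miR-142a-3p: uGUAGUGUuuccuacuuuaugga
miR-223-3p: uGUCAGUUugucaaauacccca
miR-223-5p: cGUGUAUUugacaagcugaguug
miR-150-3p: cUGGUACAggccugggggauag

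The liver marker and part of the blood markers had no readable signal. miR-122-5p (MIMAT0000246), its other arm miR-122-3p, miR-142a-3p (MIMAT0000155), miR-486a-5p (MIMAT0003130) and miR-486a-3p had 0 counts in all 4 libraries. Each of these 5 rows overlaps a mature entry of the other strand by 20 or 21 bases, and those entries were at 0 as well. The counting command in the file header sets no strand, and nothing in it asks for reads shared by several entries to be counted. Over the whole table, 105 of 106 rows with such an overlap were at 0 in all libraries (99.1%), against 1004 of 2004 rows without one (50.1%). The exception, named after its values were seen, was miR-129b-3p, with 6 counts in damaged replicate 2. The 0 of these 5 rows gives no level for miR-122, miR-142a-3p or miR-486a, and no limit on it. The other 8 rows had counts in at least 1 library.

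**Figure D1:**
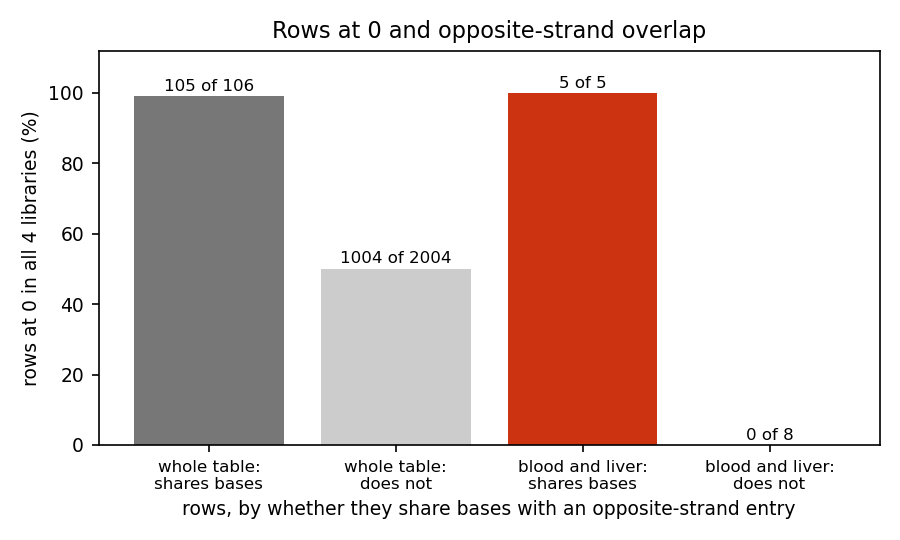
Bars give the percentage of rows at 0 counts in all 4 libraries (y axis), for rows that do or do not share bases with an opposite-strand entry, in the whole table and among the blood and liver miRNAs. All 5 blood and liver rows with an overlap were at 0, and none of the 8 without one.

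The overlap can be read from the sequences of miR-142. The opposite-strand entry miR-142b pairs base for base with positions 4 to 23 of miR-142a-3p, shown in capitals here.
miR-142a-3p, paired part in capitals: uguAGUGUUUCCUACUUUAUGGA
miR-142b, seed in capitals: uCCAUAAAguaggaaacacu

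miR-142a-3p lies on chromosome 11 at 87756903 to 87756925 (mm10, plus strand) in an intron of the noncoding gene Mir142hg. miR-142a-5p, at 87756867 to 87756887 of the same intron, overlaps no entry and was counted. Its first 10 bases, CAUAAAGUAG, also occur in miR-142b. miR-486a-5p is in an intron of Ank1, which encodes a red cell and muscle ankyrin, on chromosome 8 at 23142587 to 23142608. miR-122-5p lies on chromosome 18 at 65248866 to 65248887, in an exon of the noncoding gene AC157910.3.

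The red cell marker miR-451a was abundant, and none of the rows that could be tested passed between damaged and WT. miR-451a alone made up 95.5 to 97.6% of the counts of all 13 rows. The 5 rows that cannot be read for strand overlap add 0 to these sums, so miR-451a is not compared with them. Together the 13 rows took 0.173% (exact 95% interval 0.169 to 0.176) and 0.152% (0.150 to 0.155) of the WT libraries. In the damaged libraries the share was 0.155% (0.152 to 0.158) and 0.148% (0.146 to 0.151). The groups overlapped, at 0.162% ± 0.0143 in WT and 0.152% ± 0.00447 in damaged (SD, n = 2; exact two-sided permutation p = 0.667, where 2 against 2 cannot go below 0.333). The intervals cover counting error only. In vesicle preparations fewer vesicles from a source and less of a miRNA per vesicle cannot be told apart.

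Of the 13 rows, 6 had enough counts to be tested. edgeR called 0 of them, where it called 9.51% of the 536 tested rows, 4.1% as higher and 5.41% as lower in damaged. That share of calls rests on all 4 libraries: 51 calls became 0 when damaged replicate 1 or either WT library was left out, and 30 without damaged replicate 2. At an unadjusted p under 0.05 there were 2 of 6, miR-144-3p and miR-142a-5p, against 30.8% of all tested rows. Both entered the test through their damaged libraries alone, so the filter set the direction of their difference. Their number is thus no evidence of a rise. limma-voom also called 0 of the 6, with 0 at an unadjusted p under 0.05. DESeq2 called 0 as well, with 2 at an unadjusted p under 0.05. It gave no adjusted p to miR-144-3p and miR-223-5p, so these rows could not be called. In the full comparison DESeq2 called 109 of the 515 rows with an adjusted p, and limma-voom called 79 of 536. Before adjustment, 161 of 536 rows in DESeq2 and 168 of 536 in limma-voom fell below 0.05. The median log2 fold change was 0.18 over the 6 rows, also with miR-144-3p at its bound given further on, and 0.02 over all tested rows.

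**Figure D2:**
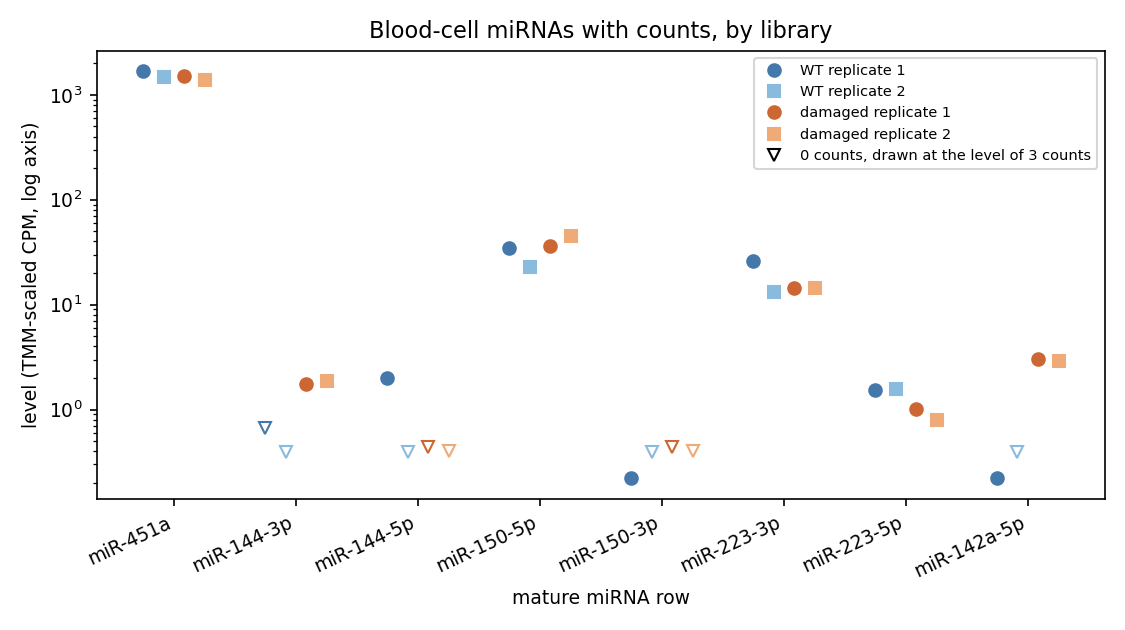
Points give the level of each row with counts in each of the 4 libraries, in TMM-scaled CPM, on a log axis; open triangles mark libraries at 0, drawn at the level of 3 counts, so that a single count lies below them. miR-451a lies at 1386 to 1683 CPM in all libraries, and miR-144-3p and miR-142a-5p are seen in both damaged libraries.

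miR-451a (MIMAT0001632) lies between annotated genes on chromosome 11 at 78073186 to 78073207 (mm10, plus strand). Its bases are positions 17 to 38 of a hairpin of 72 bases, a stretch that runs into the loop. It had 7603 and 11346 counts in WT and 10291 and 10423 in damaged. Scaled for depth by TMM, these were 1683 and 1490 CPM in WT, and 1501 and 1386 in damaged, CPM being the usual depth-scaled count. WT replicate 1 was highest and damaged replicate 2 lowest, and the groups overlapped. The log2 fold change, damaged over WT, was -0.14 (SE 0.13; edgeR adjusted p = 0.533), with a 95% interval from 0.73-fold to 1.14-fold. It ranked 51 of 536 tested rows by mean CPM. miR-206-3p, the most abundant miRNA of these vesicles and specific to skeletal muscle, had 172 and 219 counts per miR-451a count in WT and 227 and 258 in damaged.

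miR-451b, annotated on the opposite strand of the same hairpin, ends 11 bases from miR-451a without overlapping it and had 0 counts in all libraries.
miR-451b, seed in capitals: uGGGAGCAgcaagagaaccgu

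In blood work the ratio of miR-451a to miR-23a-3p is used to follow red cell lysis, since miR-23a-3p hardly differs between lysed and intact samples. Here miR-23a-3p, which muscle and many other tissues make, exceeded miR-451a in every library, by 8.71 and 11.3 counts per miR-451a count in WT, and by 14.4 and 18.2 in damaged. As log2 of miR-451a over miR-23a-3p the groups did not overlap, at -3.31 ± 0.263 in WT and -4.02 ± 0.243 in damaged (SD, n = 2; exact two-sided permutation p = 0.333, the smallest that 2 against 2 allows). The difference was -0.71, of which miR-451a itself showed -0.14 in the fit. For miR-23a-3p the log2 fold change was 0.58 (SE 0.13; edgeR adjusted p = 0.0531). The groups of 59.9% of tested rows did not overlap in one direction or the other.

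By depth-scaled level over the 4 libraries, the rows nearest to the course of miR-451a were miR-221-3p, miR-143-3p and miR-181b-5p. Their root mean square distances on the log2 scale, each row centred on its own mean, were 0.0448, 0.0520 and 0.0555, against a median of 0.274 over the 158 other rows of at least 100 CPM. With 4 libraries such likeness is a description only. Each of the 3 had WT replicate 1 highest and damaged replicate 2 lowest, as miR-451a did, in the same libraries by which they were picked. The second copy of miR-181b-5p had damaged replicate 1 lowest, at 1190 CPM against 1196 in damaged replicate 2.

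miR-144 lies 119 bases before miR-451a, and its counts were tiny beside it. miR-144-3p (MIMAT0000156), at 78073047 to 78073066, had 0 and 0 counts in WT, and 12 and 14 in damaged. Both damaged libraries lay above both WT libraries, as for 29.1% of all tested rows. The damaged mean of 1.81 ± 0.0788 CPM (SD, n = 2) was 3.41 times a WT floor of 3 counts per library. This ratio was 2.72 without WT replicate 2 and 4.58 without WT replicate 1. It is a bound for the WT side only, since the damaged counts enter without their own counting error. The fitted log2 fold change was 6.60 (SE 1.72) and missed the threshold (edgeR adjusted p = 0.0807); with WT at 0 it is no bound. This row entered the test through its damaged libraries alone, so the direction of its difference was set by the filter. In the damaged libraries there were 858 and 745 miR-451a counts per miR-144-3p count.

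The other arm was seen in a single WT library. miR-144-5p, at 78073010 to 78073032, had 9 counts in WT replicate 1 and 0 in the other 3 libraries, and was not tested. Of all 2110 rows, 66 (3.13%) had at least 9 counts in 1 library and 0 in the others, a threshold set after these values were seen.

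Among the white cell miRNAs, miR-142a-5p (MIMAT0000154) was seen almost only in the damaged libraries. It had 1 and 0 counts in WT, and 21 and 22 in damaged, or 2.99 ± 0.0972 CPM in damaged (SD, n = 2). Summed over libraries this is 43 counts against 1, a depth-scaled ratio of 36.3 with an exact 95% counting interval from 6.17 to 1466. That interval pools the libraries of each group and leaves out the spread between replicates, so it is no test of the difference. The fitted log2 fold change was 4.78 (SE 1.45) and missed the threshold (edgeR adjusted p = 0.0903). It went to 3.67 without WT replicate 2 and to 7.44 without WT replicate 1, when WT is at 0 (edgeR adjusted p = 0.298 and 0.261, and 0.0783 to 0.298 over all settings). As for miR-144-3p, the damaged libraries alone carried miR-142a-5p through the filter, so the direction of its difference was set by the filter.

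**Figure D3:**
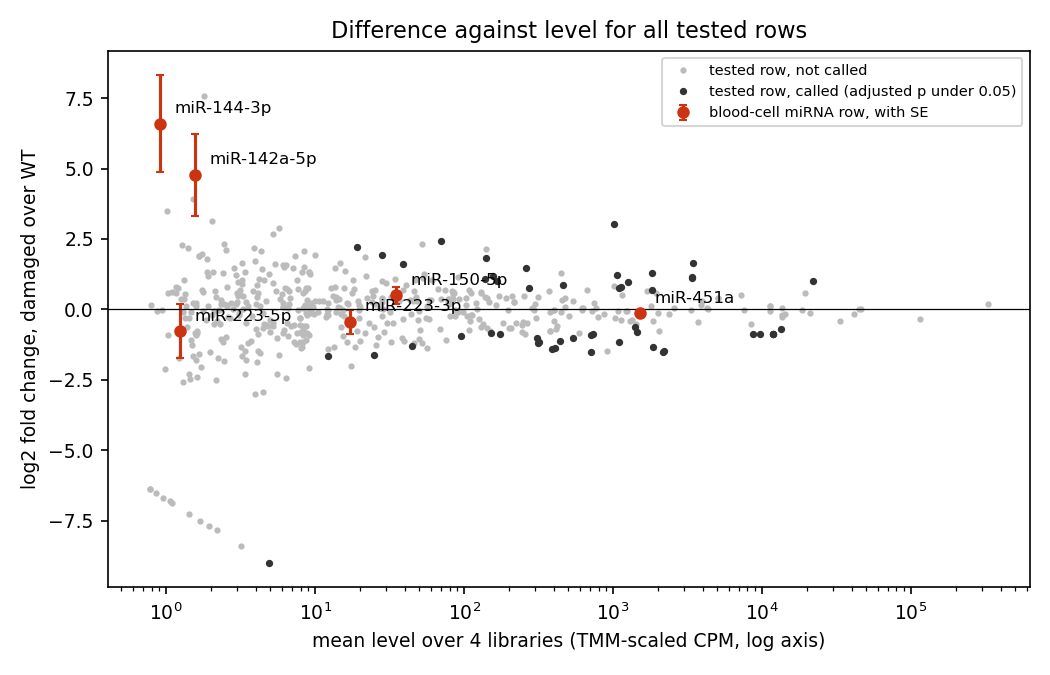
Each point is a tested row, with its mean level over the 4 libraries on the x axis (CPM, log axis) and the fitted log2 fold change of damaged over WT on the y axis; red points are the 6 tested blood-cell rows with their SE. miR-144-3p (6.60) and miR-142a-5p (4.78) stand high at the low end of the level axis, and fitted values of rows with a group at 0 are no bounds.

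miR-150-5p (MIMAT0000160), which restrains Myb in lymphocytes, lies between annotated genes on chromosome 7 at 45121762 to 45121783. It had 158 and 173 counts in WT, and 250 and 337 in damaged, or 35.0 and 22.7 CPM in WT and 36.5 and 44.8 CPM in damaged. Both damaged libraries were above both WT libraries, as for 29.1% of all tested rows, and damaged replicate 1 by a small margin. The log2 fold change was 0.50 (SE 0.31; edgeR adjusted p = 0.332), with a 95% interval from 0.83-fold to 2.42-fold, and 0.24 without WT replicate 2. Its other arm, miR-150-3p, had 1 count in WT replicate 1 and 0 in the other libraries, against 918 counts of miR-150-5p in all.

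miR-223-3p (MIMAT0000665) lies in an exon of the noncoding gene F630028O10Rik on chromosome X at 96242884 to 96242905. It had 119 and 100 counts in WT, and 99 and 108 in damaged, or 26.3 and 13.1 CPM in WT and 14.4 and 14.4 CPM in damaged. WT replicate 1 stood above the other 3 libraries, which were close to each other, and the damaged libraries fell between the WT ones. Its log2 fold change was -0.44 (SE 0.42; edgeR adjusted p = 0.533), and 0.05 without WT replicate 1. Its other arm, miR-223-5p, had 7 and 12 counts in WT, and 7 and 6 in damaged. Scaled for depth, both damaged libraries were below both WT libraries, as for 30.8% of tested rows, and the log2 fold change was -0.77 (SE 0.96; edgeR adjusted p = 0.661). There were 8.33 to 18.0 counts of miR-223-3p per miR-223-5p count over the 4 libraries, so the 3p arm led in every library.

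In order of level among the rows that could be read, miR-451a came first, at 41.2 to 65.6 counts per miR-150-5p count in 3 libraries and 30.9 in damaged replicate 2. miR-150-5p and miR-223-3p followed, and their ranges over libraries overlapped (22.7 to 44.8 and 13.1 to 26.3 CPM). Within each library miR-150-5p was nonetheless the higher one, by 1.33 and 1.73 times in WT and by 2.53 and 3.12 times in damaged. miR-223-5p, miR-142a-5p, miR-144-3p, miR-144-5p and miR-150-3p were all at 3.06 CPM or less, and their ranges overlapped apart from those of miR-223-5p and miR-150-3p. These entries are all 20 to 23 bases long, so length hardly enters.

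Wider marker lists, which share rows with the miRNAs above, were read from the same fit. The erythroid list added miR-16-5p, miR-15a-5p, miR-92a-3p and miR-363-3p, which many dividing cells also make. Of its 11 rows 2 cannot be read for strand overlap. Of its 7 tested rows none passed, against 9.51% of all tested rows. Among them were 2 copies each of miR-16-5p and miR-92a-3p, so they stand for fewer than 7 miRNAs. The median log2 fold change was -0.39, also with miR-144-3p at its bound, against 0.02 over all tested rows. The list's most abundant row, a copy of miR-92a-3p, had means of 2557 ± 412 and 1487 ± 246 CPM in WT and damaged (± is the SD of n = 2, edgeR adjusted p = 0.0531). The other copy of miR-92a-3p had 212 ± 9.54 and 151 ± 2.36 CPM (SD, n = 2, edgeR adjusted p = 0.0931). By level miR-451a was the list's next row. The summed level of 7408 and 7791 CPM in WT, and 5182 and 5967 CPM in damaged, was thus mostly that of widely made miRNAs.

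In the white cell list 1 of 7 tested rows rose and 6 did not pass, where 4.1% of all tested rows were called higher. The list's median was 0.46, against 0.02 over all tested rows. The riser was miR-146a-5p, a brake on inflammatory signalling that many cell types induce, with means of 1060 ± 171 and 2576 ± 176 CPM in WT and damaged (± is the SD of n = 2; log2 difference 1.28, edgeR adjusted p = 0.0161). miR-155-5p, another miRNA of activated immune cells, had 262 ± 73.4 and 360 ± 15.7 CPM (SD, n = 2; edgeR adjusted p = 0.239). The lineage-restricted rows given above that could be read stood far below both. miR-142a-3p, also on this list, cannot be read for strand overlap.

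In the liver list, whose defining marker miR-122 cannot be read, 0 of 4 tested rows passed, against 9.51% of all tested rows, and the median was 0.71, against 0.02 over all tested rows. The upper 2 of the 4 values, 1.08 and 1.02, belong to the copies of 1 miRNA, miR-194-5p, named after its values were seen (edgeR adjusted p = 0.112 and 0.107). miR-192-5p, also made in gut and kidney, had means of 165 ± 4.98 and 218 ± 3.22 CPM in WT and damaged (± is the SD of n = 2; edgeR adjusted p = 0.148), and miR-148a-3p had 110 ± 15.7 and 129 ± 11.0 CPM (SD, n = 2; edgeR adjusted p = 0.492). The platelet and endothelial list, miR-126a-3p and miR-126a-5p, had 0 counts, and both rows share bases with an opposite-strand entry.

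The muscle list, a check of the labels, had 3 of 7 tested rows higher, where 4.1% of all tested rows were called higher. They were miR-133b-3p and the 2 copies of miR-133a-3p, which share 1 mature sequence and stand for 1 miRNA, at log2 fold changes of 1.22, 1.14 and 1.12 (edgeR adjusted p = 0.0107, 0.00914 and 0.00914). The other 4 did not pass, and its median was 1.12, against 0.02 over all tested rows. Its summed level was 300090 and 336480 CPM in WT, and 359370 and 373940 CPM in damaged, nearly all of it miR-206-3p at 290240 to 357580 CPM. The tested copy of miR-1a-3p had means of 3556 ± 332 and 4317 ± 593 CPM in WT and damaged (± is the SD of n = 2, edgeR adjusted p = 0.262). Its other copy shares 21 bases with an opposite-strand entry and was not tested. Whether serum, cells or another source supplied the blood-cell miRNAs was not tested.

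**Figure D4:**
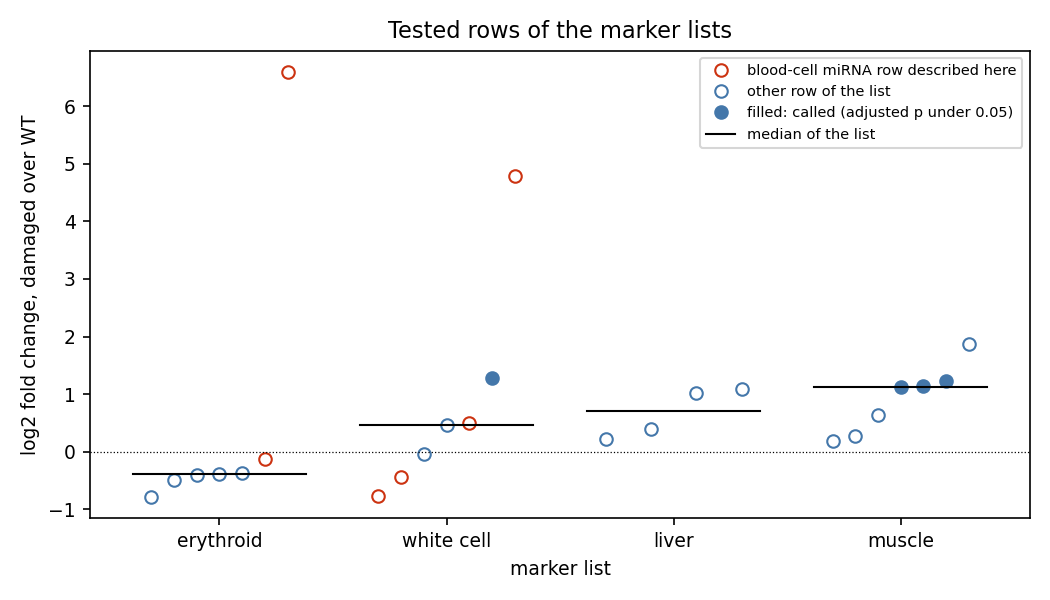
Points give the fitted log2 fold change of damaged over WT for each tested row of 4 marker lists; red marks the blood-cell rows described above, filled points passed the test, and black lines are list medians. The erythroid median is -0.39 and the muscle median 1.12, and the 4 filled points are miR-146a-5p, miR-133b-3p and the copies of miR-133a-3p.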

How the data were processed

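The authors deposited read counts per mature miRNA entry for 4 libraries, made with FastQC, BWA and featureCounts on mm10, per the submitters' processing notes. featureCounts 2.0.1 was run without options for strand, multi-mapping or overlapping entries, per the file headers. The sources used here do not give the version of BWA, the trimming of reads or the release of miRBase. Rows were named by exact position in RefSeq (1734 of 2110) or by GENCODE vM21 hairpin and arm (364), and 12 stayed unnamed.

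Groups were compared with edgeR's quasi-likelihood method (edgeR 4.0.16, R 4.3.3), scaled by TMM and filtered by filterByExpr (minimum count 10). Group was the sole covariate, and p-values of all 536 tested rows were adjusted by Benjamini-Hochberg, with calls at 0.05. The SE is the log2 fold change divided by the root of F, and intervals of fold changes use the test's degrees of freedom. CPM values are TMM-scaled and percentages of counts are not. Intervals of shares are exact 95% Clopper-Pearson ones. No molecular identifiers are mentioned, so these intervals and the floor of 3 counts reflect counting error alone. The fit was tested on simulated data. limma 3.58.1, DESeq2 1.42.0, other scalings and filters, summed copies, a replicate block and leaving out each library were the alternatives. Replicates of each group differed by more than sampling noise (chi-square per degree of freedom 106 in WT and 202 in damaged).

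Named were all rows of the chosen miRNAs, the opposite-strand entries, the 3 rows nearest to miR-451a, and from each marker list the 2 most abundant tested rows and every called row. The miRNAs and lists were chosen with earlier results of these data known.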

Additional observations from a re-analysis of the deposited data

How the results depend on the processing

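In all 14 settings, the one reported included, 0 of the blood and liver rows were called. The number of them tested ranged from 3 with at least 10 CPM required to 8 with no filter. DESeq2 gave no adjusted p to miR-144-3p and miR-223-5p. Where no row of the table was called, 0 of these rows was certain and says nothing about them. With each library left out in turn, the number of calls over all rows ranged from 0 (without damaged replicate 1 or either WT library) to 30 (without damaged replicate 2) in place of 51, and at an unadjusted p under 0.05 there were 103 to 144 rows by edgeR. The number of calls over all rows was 77 with upper-quartile scaling and 131 with no filter. Calls numbered 91 with at least 10 CPM in at least 2 libraries, 109 with DESeq2 and 79 with limma-voom. The cause was not tested. With the replicate number as a block there were 127 calls, but the numbers only name samples: the differences between replicates of the 2 groups correlated at -0.00226 over rows. miR-223-3p was the only tested row of the set to change direction, to 0.0546 without WT replicate 1, and ranged to -0.843 without WT replicate 2. The summed share of counts of the 13 rows had a difference of damaged minus WT of -0.0108 percentage points, and of 0.00104 without miR-451a, where the other rows alone enter (exact permutation p = 0.667 in both). It was -0.000675 without WT replicate 1, -0.0209 without WT replicate 2, -0.0140 without damaged replicate 1 and -0.00765 without damaged replicate 2. miR-451a kept log2 fold changes of -0.22 to -0.09. miR-144-3p had adjusted p = 0.0732 to 0.367, was not tested when either damaged library was left out or 10 CPM was required, and has no adjusted p in DESeq2.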

Other observations

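A pattern of at most 1 count in each WT library and at least 10 in both damaged libraries was found in 4 of 2110 rows (0.190%). miR-144-3p and miR-142a-5p were 2 of them. The other 2 were miR-5132-5p, with 0 and 0 counts in WT and 33 and 18 in damaged, and miR-1948-5p, with 1 and 1 in WT and 20 and 21 in damaged. The reverse pattern was found in 8 rows (0.379%), miR-341-3p, miR-7672-3p, miR-7011-3p, miR-704, miR-291b-5p, miR-7666-3p, miR-7070-5p and miR-463-3p, none of them a blood or liver miRNA. Of all rows, 105 of the 106 that share bases with an opposite-strand entry were at 0 throughout, as were 1004 of the other 2004. The thresholds were set after the counts of miR-144-3p and miR-142a-5p were seen. Both rows had also passed the filter through their damaged libraries alone. The rarity of the pattern is thus no evidence about them, and the pattern was not tested. Of the other red cell rows, miR-451a did not share the pattern, with 7603 and 11346 counts in WT. Nor did miR-144-5p, with 9 counts in WT replicate 1 and 0 in the other libraries.

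Without miR-451a the blood and liver rows took 0.00644% and 0.00373% of counts in WT, and 0.00564% and 0.00663% in damaged. WT replicate 1 held more of these rare miRNAs than WT replicate 2, and lay within the range of the damaged libraries.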
